A study of Mus musculus with 3 samples.

Results

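T cells were examined in regenerating mouse tibialis anterior muscle, where they were a small population: 307 of 35247 cells that passed the cell filter (0.871%). A cell was taken as a T cell when its UMIs (unique molecular identifiers, each counting 1 captured RNA molecule) of Cd3e, Cd3d and Cd3g added up to at least 3 and it had no UMI of Csf1r, the macrophage growth factor receptor, or Pdgfra, which marks fibro/adipogenic progenitors (FAPs). The cells were thus chosen by their measured UMIs of these 5 genes, whose levels carry no further weight here. Young PBS contributed 96 of its 11403 kept cells, old PBS 138 of its 11058 and old rMETRNL 73 of its 12786. Where 3 values follow each other without names, they stand in this order of libraries.

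The C57/BL6J mice were 3 to 4 months old (young) or 24 to 26 months old (old), and all muscles were collected 4 days after an injection of barium chloride, which kills muscle fibres and starts regeneration. Both PBS groups received the vehicle by intramuscular injection, and old rMETRNL received recombinant meteorin-like, a secreted cytokine, in 3 injections, whose dose the sources state in more than one way. No young group given the protein and no uninjured muscle was analysed here. Each group was 1 library of 3 pooled muscles. With 1 library for each group nothing could be tested between groups. The intervals given below cover counting error alone, not the spread between mice or between cells. An interval for a ratio of summed levels takes each UMI as independent, so it is too narrow where few cells hold many of the UMIs. Dividing old PBS by young PBS gives the old-to-young ratio, and dividing old rMETRNL by old PBS gives the treated-to-vehicle ratio. Both ratios use the same old PBS library, so a value peculiar to it moves them in opposite directions.

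T cells recognise peptides through a T cell receptor that signals through the CD3 chains. CD8 T cells kill target cells with granzymes and perforin and through Fas ligand, CD4 helper T cells act through cytokines, and regulatory T cells, marked by the transcription factor Foxp3, restrain inflammation. In injured muscle, regulatory T cells are known for releasing amphiregulin (Areg), which acts on muscle progenitors, and for responding to interleukin 33 through its receptor Il1rl1. Gamma delta T cells carry a receptor built with the Trdc constant chain and are known as a source of interleukin 17 in injured tissue. In old mice, CD8 T cells that carry granzyme K (Gzmk) and the inhibitory receptor PD-1 (Pdcd1) are known to accumulate in several tissues.

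The label was checked against genes that the rule did not use. T cell receptor constant chain UMIs were present in 96 of 96, 138 of 138 and 71 of 73 T cells. These chains do not set T cells apart from NK cells, since NK cells with no CD3 UMI had a Trbc1 UMI in 82.9%, 86.4% and 84.0% and a Trbc2 UMI in 51.4%, 50% and 56.0%. Trac was the more selective, with a UMI in 70.8%, 78.3% and 69.9% of T cells against 10%, 27.3% and 8.0% of NK cells. Trac, the alpha chain constant gene, was at 347, 353 and 368 CPM (the gene's UMIs over all UMIs of the T cells, scaled to 1e6) against 1.14, 1.15 and 0.693 CPM in the other kept cells. Of 7 B cell markers, 5, 4 and 5 had 0 UMIs in the T cells, among them Cd79a, Ms4a1 and Pax5 in all libraries. The list summed to 48.7, 32.6 and 23.7 CPM in T cells against 93.1, 68.2 and 76.3 CPM in the other kept cells. Ncr1, which defines natural killer (NK) cells, had a UMI in 3, 1 and 0 T cells. The list of 13 NK cell markers summed to 794, 699.7 and 1019 CPM in T cells against 3040.5, 3127 and 2962 CPM in the other kept cells. The Trac values go with the T cell label in all 3 libraries, while the B and NK cell lists were not at 0 in these cells.

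At the edge of the rule, 9 T cells in each library had exactly 3 CD3 UMIs, and 3, 7 and 7 cells with 2 CD3 UMIs stood just outside. A receptor constant chain was found in 9, 9 and 8 of the cells just inside and in 2, 7 and 6 of those just outside. The conditions on Csf1r and Pdgfra removed 18, 26 and 10 further cells, whose median UMI count of 20528, 20985.5 and 17164 was well above that of the T cells. T cells had a median of 4718.5, 5495.5 and 4866 UMIs, against 15609, 13907.5 and 14688.5 in all kept cells. No T cell barcode was shared between libraries.

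A few cells that passed the rule also carried many UMIs of another cell type, and they weigh on summed levels. The 3 libraries had 2, 4 and 4 such cells, which held 14.3%, 8.27% and 16.7% of the T cell UMIs. They are called mixed cells here and were singled out after the data were seen. In old PBS the mixed cells held 86.4% of the dendritic cell marker UMIs, 911 and 505 of them in 2 cells, and in old rMETRNL the mixed cells held 93.8% of the endothelial and 68.9% of the macrophage marker UMIs. Summed over the list, macrophage markers were at 1112, 1274 and 3179.9 CPM in T cells against 32898, 36683 and 32299.9 CPM in the other kept cells, and the value of old rMETRNL rests mainly on its mixed cells. Levels below are given with and without them wherever they moved a value by more than 1.5 times.

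The T cell share asks what part of the kept cells of each group were T cells. It is not the number of T cells in the muscle, which was not measured, and it also moves with the yield of other cells. Of kept cells, T cells were 0.842% for young PBS (95% exact binomial interval 0.682% to 1.03%), 1.25% for old PBS (1.05% to 1.47%) and 0.571% for old rMETRNL (0.448% to 0.717%). The share was highest in old PBS and lowest in old rMETRNL, and the old PBS interval did not overlap either of the others. The ratio of shares was 1.48 (1.13 to 1.94) for the old-to-young contrast, 0.457 (0.340 to 0.612) for the treated-to-vehicle contrast and 0.678 (0.493 to 0.929) for old rMETRNL over young PBS. As a share of cells with a UMI of Ptprc, the pan-leukocyte gene CD45, T cells were at 1.19%, 1.88% and 0.846%, in the same order.

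NK cells, which share many effector genes with T cells, followed another order. Cells with an Ncr1 UMI and no UMI of the CD3 genes, Csf1r or Pdgfra made up 0.614%, 0.199% and 0.196% of kept cells (70, 22 and 25 cells). Their old-to-young ratio was 0.324 (0.191 to 0.530) and their treated-to-vehicle ratio 0.983 (0.532 to 1.83). The T cell share and the NK share thus differed in opposite directions in the old-to-young contrast, and the treated-to-vehicle contrast showed a lower T cell share with no detectable difference in NK cells.

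**Figure D1:**
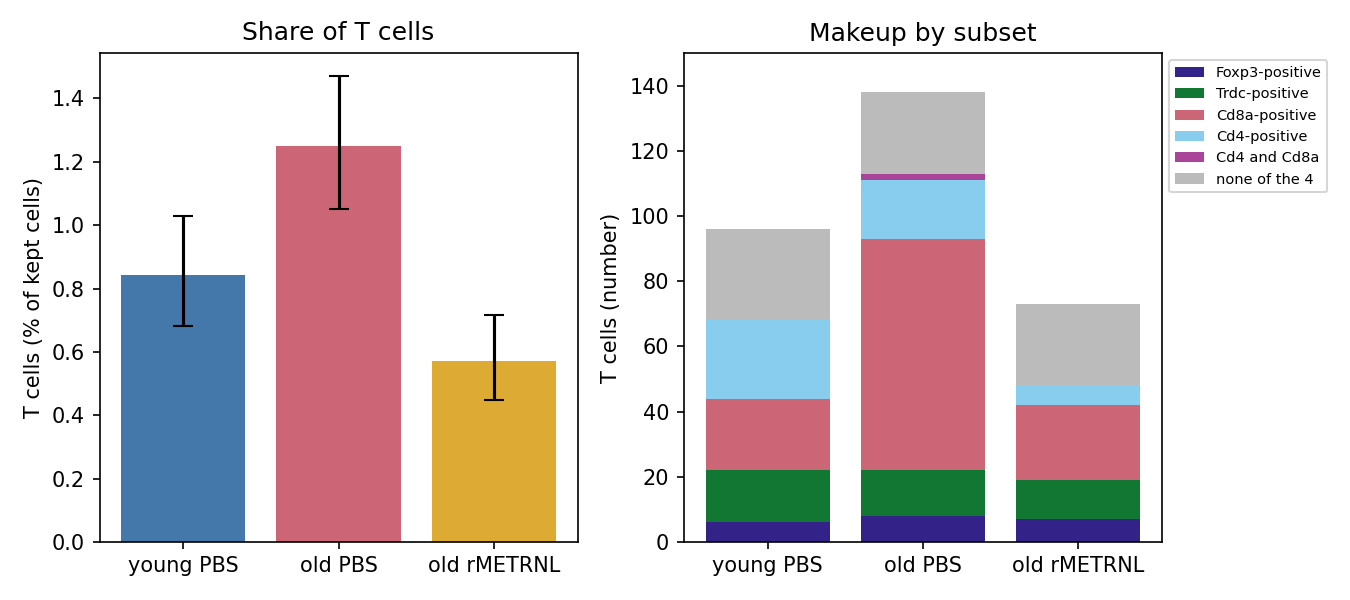
Left, T cells as a percentage of kept cells in each library, with exact 95% binomial intervals. Right, the number of T cells in each library, stacked by subset. Old PBS stands highest at 1.25%, and its 71 Cd8a-positive cells are the largest block.

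T cells were then divided by UMIs of Foxp3, Trdc, Cd8a and Cd4, Foxp3 taking precedence, then Trdc, and the remaining cells being divided into those with Cd8a and no Cd4, Cd4 and no Cd8a, both, or none of the 4 genes. Cd8a, the alpha chain of the CD8 co-receptor (chromosome 6, 71373427 to 71379173, GRCm38, plus strand), marked the subset that differed most in number. Cd8a-positive cells numbered 22, 71 and 23, or 22.9% (15% to 32.6%), 51.4% (42.8% to 60.0%) and 31.5% (21.1% to 43.4%) of the T cells. The old-to-young ratio of this share was 2.25 (1.37 to 3.80) and the treated-to-vehicle ratio 0.612 (0.365 to 0.992).

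Measured against all kept cells, Cd8a-positive T cells had an old-to-young ratio of 3.33 (2.04 to 5.64) and a treated-to-vehicle ratio of 0.280 (0.167 to 0.454). Old rMETRNL and young PBS did not differ beyond counting error in this measure, at 0.180% and 0.193% with a ratio of 0.932 (0.497 to 1.75). The partner chain Cd8b1, which the division did not use, was found in 22, 81 and 31 T cells. Its share had an old-to-young ratio of 2.56 (1.58 to 4.31), a treated-to-vehicle ratio of 0.723 (0.462 to 1.11), which held 1, and a ratio of old rMETRNL to young PBS of 1.85 (1.04 to 3.36) (1.73, 0.893 to 3.40, in cells thinned to 2000 UMIs, which held 1). A UMI of either chain was found in 28.1%, 60.1% and 43.8% of T cells. Cd8a was nearly absent from cells that should lack it, with a UMI in 0.185%, 0.255% and 0.0919% of Csf1r-positive cells and in 0 of 70, 0 of 22 and 0 of 25 NK cells.

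Depth was evened out by computing the share expected after each T cell is thinned to 2000 UMIs, which left out 4, 0 and 5 shallower cells. A Cd8a UMI was then expected in 14.4%, 31.4% and 20.9% of T cells, against 25%, 53.6% and 31.5% before thinning. The old-to-young ratio stayed at 2.18 (1.16 to 4.47). The treated-to-vehicle ratio of 0.665 had an interval that held 1 (0.334 to 1.23), so that the lower Cd8a share among T cells of old rMETRNL was not detectable at this thinned depth.

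Cd4-positive cells numbered 24, 18 and 6, or 25%, 13.0% and 8.22% of T cells. Their old-to-young ratio was 0.522 (0.267 to 1.0), their treated-to-vehicle ratio 0.630 (0.205 to 1.66), and the ratio of old rMETRNL to young PBS 0.329 (0.110 to 0.826). For a Cd4 UMI in thinned cells that last ratio was 0.411 (0.0989 to 1.35), which held 1. Of kept cells they made up 0.210%, 0.163% and 0.0469%, and this treated-to-vehicle ratio was 0.288 (0.0937 to 0.758). Cd4, the helper co-receptor, was sparse and is also made by macrophages, with a UMI in 9.83%, 9.10% and 7.51% of Csf1r-positive cells. The T cell rule removes cells with a Csf1r UMI, so this is not the background of the Cd4 calls. In Pdgfra-positive cells a Cd4 UMI was found in 0.640%, 1.39% and 0.920%, and a Cd8a UMI in 0.256%, 0.232% and 0%.

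Foxp3-positive cells numbered 6, 8 and 7, or 6.25%, 5.80% and 9.59% of T cells, and Trdc-positive cells 16, 14 and 12, or 16.7%, 10.1% and 16.4%. For Foxp3-positive cells the old-to-young ratio was 0.928 (0.282 to 3.24) and the treated-to-vehicle ratio 1.65 (0.511 to 5.22). For Trdc-positive cells they were 0.609 (0.275 to 1.33) and 1.62 (0.685 to 3.77). These intervals all held 1 and were wide, so that no difference was detectable with this number of cells. A further 28, 25 and 25 T cells had no UMI of the 4 genes, and 2 cells of old PBS had both Cd4 and Cd8a.

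**Figure D2:**
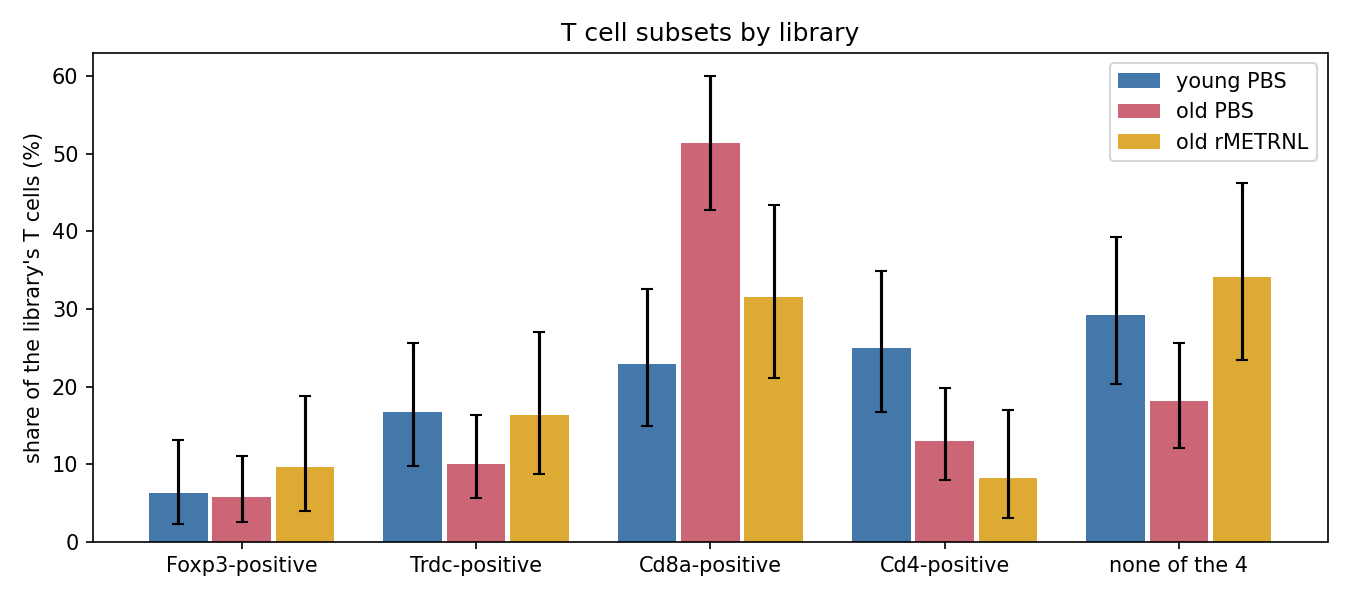
Share of each library's T cells in 5 exclusive subsets, with exact 95% binomial intervals. Between old PBS and young PBS, only the Cd8a-positive shares (51.4% and 22.9%) have intervals that do not overlap; the 2 old PBS cells with both Cd4 and Cd8a are not drawn.

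The subsets carried the genes their names imply, beyond the gene that chose them. Without mixed cells, the genes with the highest ratio to the other T cells in the 20 Foxp3-positive cells were Klrg1, Itgae, Il1rl1, Areg, Ctla4, Il2ra, Tnfrsf4, Glrx and Tnfrsf9. Areg was at 751 CPM in them against 36.2 CPM in the other T cells. Ctla4, a checkpoint receptor typical of regulatory T cells, was at 1314 against 71.3 CPM, and Il2ra, the high-affinity interleukin 2 receptor chain, at 552 against 43.9 CPM.

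In the 40 Trdc-positive cells the leading genes were Trdv4, Cd163l1, Il17a, Blk, Tcrg-C1, Abi3bp, Actn2, Mmp25 and Igf1r. Trdv4, the variable segment of a gamma delta receptor, was at 682 CPM against 0.595 CPM in the other T cells, and Cd163l1, a scavenger receptor of interleukin 17-producing gamma delta cells, at 520.3 against 0.595 CPM. Il17a itself had 20 UMIs in 8 of these cells and 0 in the other T cells. Trdc transcripts are also found in NK cells, where 31.4%, 31.8% and 20% had a UMI, and Trac was at 0 in 10 of 16, 9 of 14 and 10 of 12 Trdc-positive cells.

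The 114 Cd8a-positive cells were led by Cd8b1, Wars, Utp20, Tnfrsf23, Gzmm, Ifng, Gzmk, Cenpm and Ccl4. Gzmk was at 121 CPM in them against 31.4 CPM in the other T cells. The 47 Cd4-positive cells were led by Ccl1, Il4, Il2, Il13, Il5, Tnfsf8, Tnfsf11, Izumo1r and Tnfrsf4, but Ccl1 came from 2 cells, Il4 from 1 cell and Il13 and Il5 from 5 cells each. Tnfsf8, the CD30 ligand, was broader, in 21 of the 47 cells at 644 CPM against 47.2 CPM.

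**Figure D3:**
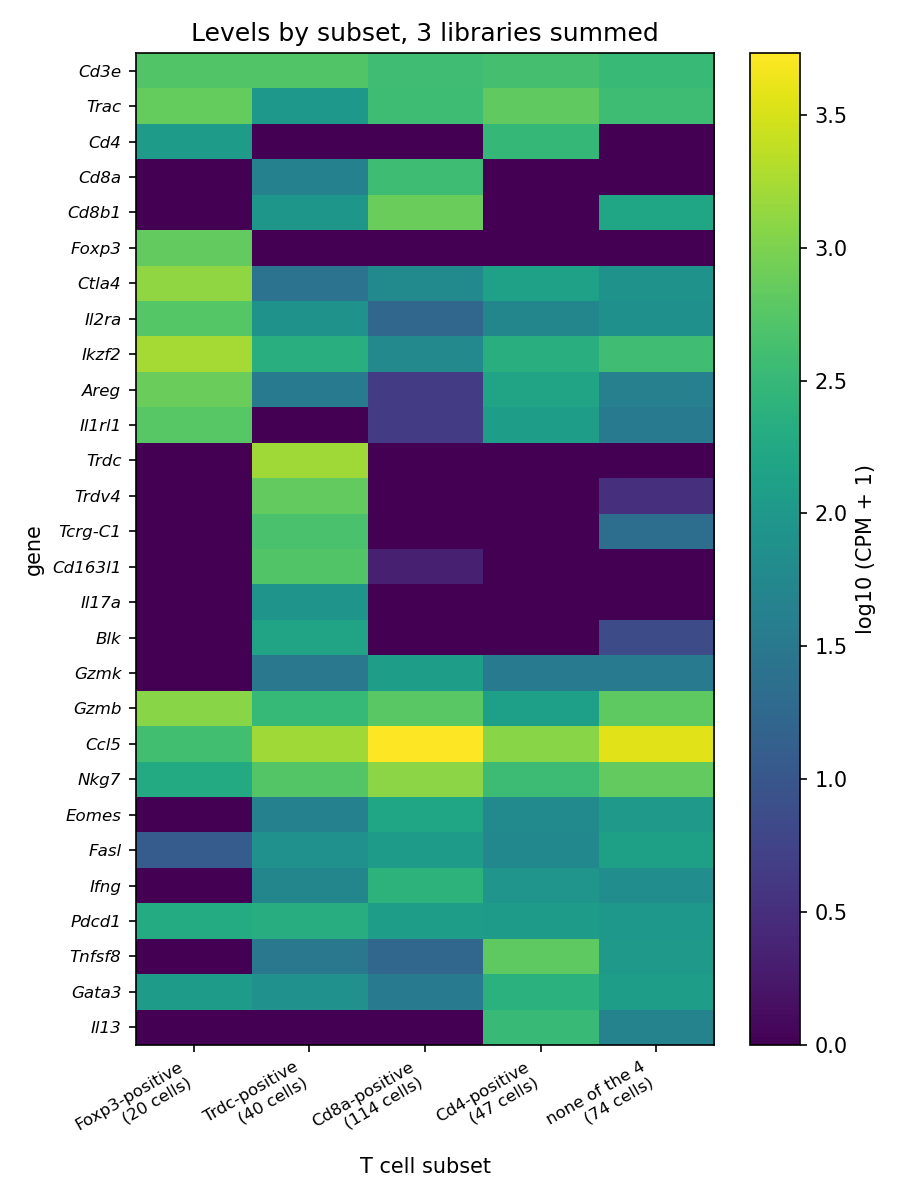
Level of 28 genes (rows) in 5 T cell subsets (columns), as log10 of CPM plus 1, over the 3 libraries together and without mixed cells. Foxp3, Trdc, Cd8a and Cd4 chose the columns; Areg, Il1rl1 and Ctla4 stand out in Foxp3-positive cells, Trdv4, Cd163l1 and Il17a in Trdc-positive cells, and Cd8b1 and Gzmk in Cd8a-positive cells; Ccl5 is high both in these and in cells with none of the 4 genes.

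Cd8a and Gzmk carried the contrasts described next, and the 250 bases before each start site are shown for that reason, from RefSeq, build GRCm38.p6, each read along its gene's strand. The letters GGTGTGA, a core that T-box factors such as Eomes and T-bet bind, and TGTGGT, a core of RUNX sites, were searched on both strands. Capitals mark the match in Gzmk, which lies 75 bases before the start; Cd8a held neither motif.
Cd8a, chr6:71373177-71373426, plus strand: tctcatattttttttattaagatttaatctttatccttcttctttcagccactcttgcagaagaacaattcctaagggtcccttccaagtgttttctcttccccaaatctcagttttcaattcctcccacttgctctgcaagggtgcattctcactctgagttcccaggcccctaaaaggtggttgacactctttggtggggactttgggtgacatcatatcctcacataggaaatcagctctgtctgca
Gzmk, chr13:113180966-113181215, minus strand: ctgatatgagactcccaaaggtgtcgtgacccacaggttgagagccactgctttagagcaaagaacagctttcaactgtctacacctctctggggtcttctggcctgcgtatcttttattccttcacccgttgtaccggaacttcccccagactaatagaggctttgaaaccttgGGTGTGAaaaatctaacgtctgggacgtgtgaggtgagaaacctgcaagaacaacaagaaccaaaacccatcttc
Of 32851 promoters of this length, 1095 (3.33%) held the T-box letters and 4614 (14.0%) the RUNX letters. Eomes, Fasl and Pdcd1 held neither in the same window, and Cd8b1 and Ccl5 were not in the table used. A match is a description of these letters and not evidence of binding.

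Counting every gene that reached 50 UMIs over both libraries of a ratio, 84 of 4322 (1.94%) were past 2-fold higher and 65 (1.50%) past 2-fold lower in the old-to-young contrast. In the treated-to-vehicle contrast these were 80 of 3903 (2.05%) and 59 (1.51%), and for old rMETRNL over young PBS 86 of 3241 (2.65%) and 68 (2.10%). Without the mixed cells the lower genes of the old-to-young contrast went from 65 to 36, the higher and lower genes of the treated-to-vehicle contrast from 80 to 49 and from 59 to 38, and those of old rMETRNL over young PBS from 86 to 37 and from 68 to 26. Genes at a lower CPM in T cells than in the other kept cells were 45 of the 80 higher and 17 of the 59 lower in the treated-to-vehicle contrast, beside 1032 of all 3903, and 30 of 84 and 26 of 65 in the old-to-young contrast, beside 1177 of 4322.

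The cytotoxic effector list, 20 measured genes of CD8 and NK killing, held 7 genes past 2-fold higher and 0 lower in the old-to-young contrast, with a median log2 ratio of 0.45 against -0.013 over all 5087 genes, of which 100 were past 2-fold higher and 118 lower. In the treated-to-vehicle contrast 1 was past 2-fold higher and 3 lower, with a median of -0.31 against 0.037 over all genes, of which 148 were past 2-fold higher and 118 lower. The 7 genes past 2-fold higher in old PBS than in young PBS were Cd8a, Cd8b1, Gzmk, Ccl5, Fasl, Eomes and Ifng. The list overlaps the CD8 chains that define the larger subset of old PBS, so that its median also moves with the number of Cd8a-positive cells.

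Gzmk, granzyme K, had 27, 96 and 15 UMIs in 11, 48 and 8 T cells, or 38.7, 94.7 and 32.3 CPM. Old PBS was the high library, with an old-to-young ratio of 2.45 (1.58 to 3.90) and a treated-to-vehicle ratio of 0.341 (0.184 to 0.591). In thinned cells these ratios were 2.01 (0.828 to 4.96) and 0.337 (0.0887 to 1.03), which both held 1, and with each cell weighed equally the old-to-young ratio was 1.49. Background was low, with a Gzmk UMI in 0 of 7029, 2 of 6656 and 0 of 7618 Csf1r-positive cells.

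Eomes, a T-box transcription factor of effector and memory CD8 cells, had 28, 158 and 32 UMIs in 12, 50 and 15 cells (40.1, 156 and 68.9 CPM). Its old-to-young ratio was 3.89 (2.59 to 6.04) and its treated-to-vehicle ratio 0.442 (0.292 to 0.650). In thinned cells an Eomes UMI was expected in 6.39%, 19.1% and 10.8% of T cells, with an old-to-young ratio of 2.99 (1.16 to 8.58) and a treated-to-vehicle ratio of 0.565 (0.200 to 1.29), which held 1. The related factor Tbx21, which encodes T-bet, was at 31.5, 53.3 and 45.2 CPM.

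Ccl5, a chemokine of activated effector cells, was at 2079, 4538 and 3165 CPM, with an old-to-young ratio of 2.18 (2.06 to 2.32) and a treated-to-vehicle ratio of 0.697 (0.657 to 0.740). Over the alternatives these ratios ran from 1.94 to 2.42 and from 0.594 to 0.824, past both intervals. A Ccl5 UMI was found in 86.4%, 97.2% and 87.0% of Cd8a-positive cells. The ratios of this share were 1.13 (0.669 to 1.98) and 0.895 (0.515 to 1.49), which both held 1. Fasl, the Fas ligand, was at 50.2, 121 and 88.3 CPM in 22, 73 and 25 cells, with an old-to-young ratio of 2.42 (1.65 to 3.63). By summed level both genes stood highest in old PBS.

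Ifng, which encodes interferon gamma, was at 61.6, 165 and 177 CPM, but 24.6% of its UMIs in old PBS and 51.2% in old rMETRNL came from 1 cell. Its old-to-young ratio of 2.67 was 1.29 without the conditions on Csf1r and Pdgfra and 1.43 with Scrublet calls removed. Without mixed cells the ratio was 5.36 (2.83 to 11.4) in Cd8a-positive cells and 0.591 (0.317 to 1.07) in the other T cells. The share of Cd8a-positive cells with an Ifng UMI was 27.3% in young PBS (6 of 22) and 26.8% in old PBS (19 of 71), an old-to-young ratio of 0.981 (0.377 to 3.0), so the summed level and the share of cells differed. Cst7, an inhibitor of granule proteases, was at 75.9, 91.8 and 40.9 CPM with a treated-to-vehicle ratio of 0.446 (0.257 to 0.736).

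Gzma and Gzmb, granzymes A and B, gave different orders by summed level and by the share of cells. Gzmb was at 377, 412 and 779.9 CPM, with an old-to-young ratio of 1.09 (0.936 to 1.28) and a treated-to-vehicle ratio of 1.89 (1.64 to 2.18). Gzma was at 191, 155 and 457 CPM from 5, 24 and 9 cells. Its old-to-young ratio of 0.813 went to 1.82 without the Ncr1-positive cells, so that 3 cells of young PBS decided its direction. A Gzma UMI was found in 5.21%, 17.4% and 12.3% of T cells, an old-to-young ratio of 3.34 (1.25 to 11.2), and a Gzmb UMI in 30.2%, 52.9% and 42.5%, a ratio of 1.75 (1.12 to 2.79). By this share both stood highest in old PBS, as Gzmk did, and their treated-to-vehicle ratios of 0.709 (0.290 to 1.58) and 0.803 (0.510 to 1.24) held 1.

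The list of inhibitory receptors and age-linked CD8 genes had 8 measured members, and its median was 1.06 in the old-to-young contrast, with 4 past 2-fold higher and 1 lower, beside 100 and 118 of all 5087 genes. The median was 0.32 without the conditions on Csf1r and Pdgfra. Gzmk, Eomes and Ccl5 belong to both lists, so that this one is not separate from the cytotoxic list. Pdcd1, the PD-1 receptor, had 45, 148 and 60 UMIs in 23, 58 and 31 cells (64.5, 146 and 129 CPM). Its old-to-young ratio was 2.26 (1.61 to 3.24), whereas its treated-to-vehicle ratio of 0.885 (0.644 to 1.20) held 1. In thinned cells the old-to-young ratio was 1.59 (0.818 to 3.18), which held 1.

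Tox, a factor of chronically stimulated T cells, was at 22.9, 46.4 and 56.0 CPM with an old-to-young ratio of 2.02 (1.13 to 3.82). Cd160, a receptor of effector and intraepithelial lymphocytes, went the other way at 63.1, 17.8 and 36.6 CPM, an old-to-young ratio of 0.282 (0.153 to 0.498). Lag3 and Havcr2, also inhibitory receptors, had at most 12 UMIs in a library, and their age intervals held 1.

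The old PBS library held more Cd8a-positive cells, so these genes were also examined inside and outside that subset, without mixed cells. In Cd8a-positive cells Eomes was at 91.9, 195 and 130.0 CPM, an old-to-young ratio of 2.13 (1.28 to 3.72), and in the other T cells at 24.9, 130.2 and 58.6 CPM, an old-to-young ratio of 5.23 (2.63 to 11.6). Pdcd1 had old-to-young ratios of 2.38 (1.26 to 4.99) inside and 2.20 (1.45 to 3.41) outside. By summed level both genes were higher in old PBS inside and outside the subset. Cd8b1 was also found in 4 of 72, 12 of 63 and 8 of 48 of the other T cells, at 82.1, 153 and 78.1 CPM, an old-to-young ratio of 1.86 (1.20 to 2.94). Its part in the values outside the subset was not tested. By the share of Cd8a-positive cells with a UMI, the ratios of Eomes at 1.81 (0.752 to 5.26) and Pdcd1 at 1.24 (0.529 to 3.36) held 1.

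For Gzmk the old-to-young ratio in Cd8a-positive cells was 1.35 (0.814 to 2.33), which held 1, and in the other T cells 3.22 (1.33 to 8.93) from 7 and 22 UMIs. The share of Cd8a-positive cells with a Gzmk UMI was 36.4%, 50.7% and 23.8% (8 of 22, 36 of 71 and 5 of 21). Its old-to-young ratio of 1.39 (0.637 to 3.47) and treated-to-vehicle ratio of 0.470 (0.144 to 1.20) both held 1. The interval of a ratio of shares treats the positive cells as Poisson counts and is too wide where a large share of few cells is positive, so that one holding 1 does not show that the shares are alike.

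Fasl was found in 6 of 22, 48 of 71 and 9 of 21 Cd8a-positive cells, an old-to-young ratio of 2.48 (1.06 to 7.09). Gzmk and Pdcd1 were found together in 5, 19 and 3 of them, or 22.7%, 26.8% and 14.3%. Cells of that kind were thus present in all 3 libraries.

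Ikzf2 and Cd160 stood lower in the Cd8a-positive cells of old PBS. Ikzf2, a zinc finger factor of regulatory and unconventional T cells, was at 148, 24.2 and 53.5 CPM in them, an old-to-young ratio of 0.163 (0.0779 to 0.324), against 0.946 (0.748 to 1.20) in the other T cells. Cd160 was at 117, 24.2 and 68.8 CPM, an old-to-young ratio of 0.206 (0.0958 to 0.424), and in the other T cells the ratio was 0.256 (0.0752 to 0.704), so that this difference was not particular to the subset. The share of Cd8a-positive cells with a Cd160 UMI had a ratio of 0.349 (0.119 to 1.04), which held 1.

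**Figure D4:**
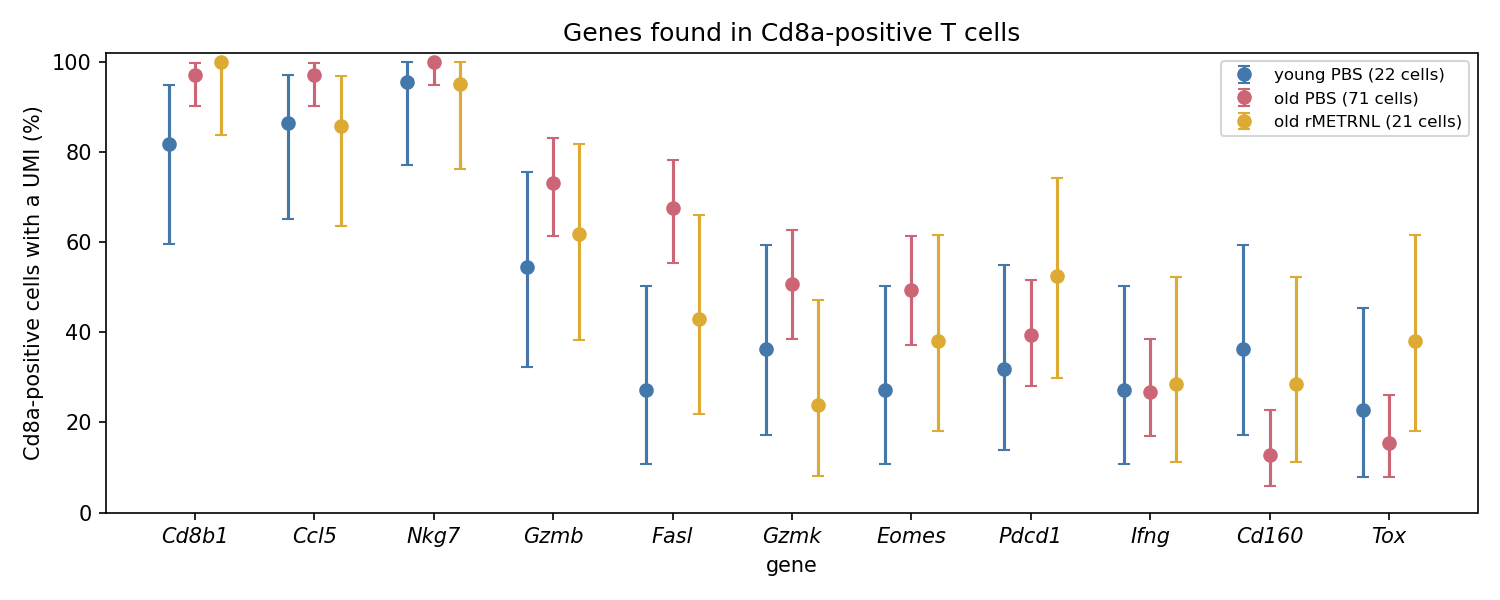
Percentage of Cd8a-positive T cells with at least 1 UMI of 11 genes in each library, without mixed cells, with exact 95% binomial intervals. Fasl lies at 67.6% in old PBS against 27.3% in young PBS. For all the other genes shown the intervals of the libraries overlap.

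Gata3, the type 2 helper factor, had 90, 66 and 25 UMIs in 34, 38 and 15 cells (129, 65.1 and 53.9 CPM), with an old-to-young ratio of 0.505 (0.362 to 0.702) and a treated-to-vehicle ratio of 0.827 (0.50 to 1.33). Within Cd4-positive cells, however, Gata3 was found in 12 of 24, 8 of 18 and 3 of 6, shares of 50%, 44.4% and 50% with an old-to-young ratio of 0.889 (0.315 to 2.36). Cd40lg, the ligand by which helper cells license other immune cells, was at 41.6, 11.8 and 21.5 CPM, an old-to-young ratio of 0.285 (0.132 to 0.576), and Ltb, lymphotoxin beta, at 453, 262 and 312 CPM, an old-to-young ratio of 0.580 (0.491 to 0.685).

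The cytokines Il5 and Il13, made by type 2 cells, came from 4, 3 and 0 T cells each. In old rMETRNL a count of 0 in 73 T cells allows up to 3 cells with a UMI, and does not limit the number of cells that make these cytokines. Il4 came from 1 cell of young PBS, and 93.2% of the Il2 UMIs of young PBS came from 1 cell. Tnfsf8 was at 119, 134 and 49.6 CPM with a treated-to-vehicle ratio of 0.369 (0.226 to 0.577). Within Cd4-positive cells it was at 410.2, 1034 and 154 CPM and found in 9 of 24, 11 of 18 and 2 of 6 cells. The treated-to-vehicle ratio of that share was 0.545 (0.0587 to 2.50), which held 1. The part of the smaller number of Cd4-positive cells in old rMETRNL was not tested.

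Foxp3-positive cells were few in each library, and the repair genes of this subset were present in all 3. Areg was found in 3 of 6, 6 of 8 and 4 of 7, and Il1rl1 in 3, 4 and 2 of them. Ikzf2 was found in 5, 8 and 7 and Ctla4 in 4, 8 and 6. None had a Cd8a UMI. These cells were too few to compare the libraries.

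Over all T cells the regulatory list of 13 measured genes had a median of -0.28 in the old-to-young contrast and 0.48 in the treated-to-vehicle contrast, with 3 genes past 2-fold higher and 1 lower in the latter, beside 148 and 118 of all 5087 genes. The median of the treated-to-vehicle contrast went to -0.019 without the conditions on Csf1r and Pdgfra. Il2ra was at 73.1, 38.5 and 86.2 CPM with a treated-to-vehicle ratio of 2.24 (1.40 to 3.57), and Ctla4 at 94.6, 94.7 and 196 CPM with a ratio of 2.07 (1.54 to 2.79), 35.2% of its UMIs in old rMETRNL coming from 1 cell. Without mixed cells, Il2ra was found in 5 of 71 and 2 of 21 Cd8a-positive cells of old PBS and old rMETRNL, and Ctla4 in 11 of 71 and 8 of 21. In their other T cells Il2ra was found in 16 of 63 and 11 of 48 and Ctla4 in 23 of 63 and 10 of 48. There the share of cells did not follow the summed level. Areg was lower at 32.3 CPM in old rMETRNL, against 81.7 and 67.1 CPM, from 4, 12 and 15 cells in that order of libraries.

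Genes of interleukin 17-producing gamma delta cells were found in Trdc-positive cells of every library. Trdv4 was found in 8 of 16, 7 of 14 and 12 of 12 of them, Cd163l1 in 10, 7 and 11, and Blk, a kinase of interleukin 17-producing gamma delta cells, in 4, 4 and 8. Il17a was found in 2, 2 and 4. The age and treated-to-vehicle ratios of these shares all held 1.

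Xcl1, Eomes, Ifng and Gzma, genes shared with NK cells, were found in 3, 3, 4 and 2 of the 16 Trdc-positive cells of young PBS and in 4, 3, 2 and 1 of the 14 of old PBS, and in 0 of the 12 of old rMETRNL. The treated-to-vehicle intervals of these 4 shares all held 1. The 3, 1 and 0 T cells with an Ncr1 UMI were all Trdc-positive. Klrb1c, also an NK cell gene, was found in 3, 0 and 0 Trdc-positive cells and in 4, 1 and 5 of the cells with none of the 4 subset genes. A Cd8a UMI was found in 2, 1 and 0 Trdc-positive cells and a Trac UMI in 6, 5 and 2. The part of such cells in the shares of Xcl1, Eomes, Ifng and Gzma was not tested. Summed over all T cells, Trdv4 was at 50.2, 50.3 and 162 CPM, a treated-to-vehicle ratio of 3.21 (2.22 to 4.68). The type 17 and gamma delta list, 8 measured genes, had a median of -0.26 in the old-to-young contrast and 0.81 in the treated-to-vehicle contrast, with 2 past 2-fold higher and 0 lower in the latter, where 148 and 118 of all 5087 genes were.

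Interferon response genes lay mostly on one side of 0 in each contrast. Of 27 measured genes, 21 were below 0 in the old-to-young contrast (median -0.27, 0 past 2-fold higher and 1 lower) and 24 above 0 in the treated-to-vehicle contrast (median 0.55, 3 higher and 0 lower). Of all 5087 genes, 2601 were below 0 in the former, where 100 were past 2-fold higher and 118 lower, and 2724 above 0 in the latter, where 148 and 118 were. The other kept cells had a summed level of 6534, 4140.3 and 5252 CPM for this list against 5166, 3925 and 5629 CPM in T cells. Old PBS was lowest in both, whereas young PBS was highest among the other kept cells and old rMETRNL among T cells.

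Isg15, a ubiquitin-like interferon product, was at 206, 124 and 248 CPM, with an old-to-young ratio of 0.603 (0.471 to 0.771) and a treated-to-vehicle ratio of 1.99 (1.53 to 2.59). Ifit1, an inhibitor of viral translation, was at 152, 70.1 and 237 CPM, with a treated-to-vehicle ratio of 3.38 (2.49 to 4.62), and 28.2% of its UMIs in old rMETRNL came from 1 cell. In Cd8a-positive cells without mixed cells its treated-to-vehicle ratio was 9.29 (5.82 to 15.2), with a UMI in 14 of 71 and 8 of 21 cells, against 0.765 (0.401 to 1.41) in the other T cells. Isg15 differed in the same sense, at 3.93 (2.75 to 5.61), with a UMI in 27 of 71 and 13 of 21 cells, and 1.29 (0.832 to 1.98). For both genes the share of Cd8a-positive cells with a UMI thus differed less than the summed level.

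Stress genes are known to be induced during tissue dissociation. The heat shock gene Hspa1b was at 1528, 756 and 1881 CPM, an old-to-young ratio of 0.495 (0.450 to 0.544) and a treated-to-vehicle ratio of 2.49 (2.26 to 2.75); with Scrublet calls removed these were 0.25 and 5.24. The 18 genes of the list had medians of -0.10 and 0.40, with 0 past 2-fold higher and 1 lower in the old-to-young contrast and 3 higher and 0 lower in the treated-to-vehicle contrast, beside 100 and 118 and then 148 and 118 of all 5087 genes. They summed to 14854, 12099.7 and 17345 CPM in T cells and to 14081, 12952 and 14204 CPM in the other kept cells. The part of this in the levels of the other genes was not tested.

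For the lists that follow, the counts past 2-fold stand beside 100 higher and 118 lower of all 5087 genes in the old-to-young contrast and 148 and 118 in the treated-to-vehicle contrast. T cell receptor and CD3 chains, which include the genes that chose the cells and are given only as a description, had medians of 0.049 and 0.026, with 0 of 10 genes past 2-fold in either contrast. Receptor signalling genes had medians of 0.24 and -0.15, with 0 of 20 past 2-fold. Naive and recirculating genes had medians of 0.14 and -0.024 with 0 of 9 past 2-fold. Chemokine and homing receptors had medians of 0.24 and -0.014, with 1 of 11 past 2-fold higher and 0 lower in the old-to-young contrast.

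The resident and activated list had medians of -0.10 and 0.12. Cytokine receptors had medians of 0.33 and -0.024, with 0 past 2-fold higher and 1 lower in the old-to-young contrast and 1 and 1 in the treated-to-vehicle contrast. For cytokines and ligands, with 3 higher and 2 lower and then 1 higher and 4 lower, the medians were 0.17 and -0.45, and the latter went to 0.13 when genes with at least 20 UMIs were counted. T lineage transcription factors had medians of 0.14 and -0.16, with Eomes higher and 1 gene lower in the old-to-young contrast and 1 and 1 in the treated-to-vehicle contrast.

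Cell cycle genes had medians of 0.079 and -0.34, and 1 gene was past 2-fold higher and 4 lower in the treated-to-vehicle contrast, beside 148 and 118 of all 5087 genes. With each cell weighed equally the median of -0.34 went to 0.062. Stmn1, a microtubule regulator of dividing cells, was at 388, 524 and 261 CPM, and Pcna, the replication clamp, at 226, 332 and 153 CPM, with treated-to-vehicle ratios of 0.497 (0.405 to 0.607) and 0.461 (0.352 to 0.597). With each cell weighed equally the ratio of Stmn1 was 0.767. The share of cycling T cells, those with at least 2 UMIs over 10 cell cycle genes in thinned cells, did not follow this, at 12.7%, 12.2% and 14.9%. Its old-to-young ratio was 0.957 (0.425 to 2.17) and its treated-to-vehicle ratio 1.22 (0.488 to 2.76).

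**Figure D5:**
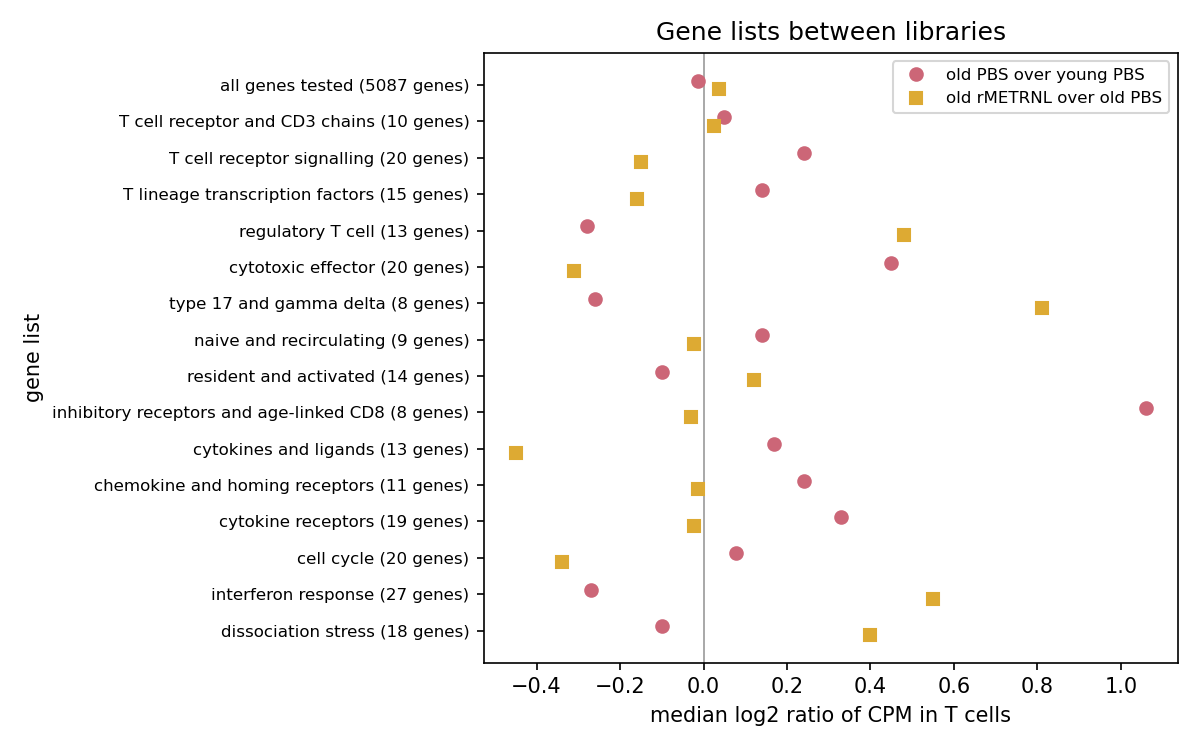
Median log2 ratio of CPM in T cells over each gene list, for old PBS over young PBS (circles) and old rMETRNL over old PBS (squares), with the number of genes measured; the vertical line marks 0. The cytotoxic list lies at 0.45 and -0.31 and the interferon list at -0.27 and 0.55, in opposite orders.

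Beyond the lists, genes were ranked only if they had at least 50 UMIs and a UMI in at least 10 T cells of the higher library. Their CPM there also had to be no lower than in other kept cells. Among these genes the largest old-to-young ratios were those of Dck, Ier5l, Hist1h4h, Brd1, Dennd4c, Igflr1, Abcb1b and Pde4d, beside Eomes and Ifng. Dck, deoxycytidine kinase, was at 14.3, 59.2 and 21.5 CPM, an old-to-young ratio of 4.13 (2.10 to 9.05) and a treated-to-vehicle ratio of 0.364 (0.166 to 0.716). Ier5l, an immediate early gene, was at 34.4, 137 and 116 CPM, an old-to-young ratio of 3.99 (2.57 to 6.44). Under the same conditions the genes with the smallest ratios included Srm, spermidine synthase, at 83.1, 15.8 and 30.2 CPM, an old-to-young ratio of 0.190 (0.102 to 0.335). They also included Hlf, a circadian leucine zipper factor, at 51.6, 13.8 and 34.5 CPM, an old-to-young ratio of 0.268 (0.133 to 0.509).

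In the treated-to-vehicle contrast Tespa1, which acts in T cell receptor signalling, was at 63.1, 29.6 and 75.4 CPM, a ratio of 2.55 (1.52 to 4.29), and Csnk2a2, a kinase subunit, at 28.7, 28.6 and 77.6 CPM, a ratio of 2.71 (1.62 to 4.58). Stk26, a serine/threonine kinase, was at 60.2, 60.2 and 17.2 CPM, a ratio of 0.286 (0.118 to 0.601), and Cops8, a COP9 signalosome subunit, at 43.0, 59.2 and 19.4 CPM, a ratio of 0.327 (0.143 to 0.664). Cd93, with a ratio of 25.3, is not a T cell gene: 79.3% of its UMIs in old rMETRNL came from 1 cell, and without mixed cells it was at 11.7, 10.8 and 28.4 CPM.

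Genes of other cell types in the T cells moved in the contrasts as well. Spp1, osteopontin of macrophages, had a treated-to-vehicle ratio of 13.1, with 92.5% of its UMIs in old rMETRNL from 1 cell, and 1.24 (0.772 to 1.96) without mixed cells. The class II gene H2-Aa had an old-to-young ratio of 4.23, which was 1.40 (0.837 to 2.40) without them. Mylpf, a fast muscle fibre gene, kept its direction, at 6, 47 and 9 UMIs and an old-to-young ratio of 5.04 (2.15 to 14.4) without mixed cells, spread over 6, 40 and 7 cells. In the other kept cells it was also highest in old PBS, at 144, 427 and 148 CPM.

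Receptor variable segments were sparse in these libraries. A Trbv segment was seen in 8, 24 and 7 T cells and a Trav segment in 16, 20 and 11. These counts were too low to compare clones.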

How the data were processed

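What the authors deposited are UMI counts of each gene in each barcode, not normalised. They come from Cell Ranger on mm10. File headers give version 5.0.0, the submitters' processing notes both 5.0.0 and 3.1.0, and the study's methods another, which was not settled here. A cell was kept if it had 500 or more genes and less than 10% of its UMIs from mitochondrial genes. Libraries held 12168, 12568 and 14012 barcodes with 218059089, 179295668 and 228966697 UMIs in young PBS, old PBS and old rMETRNL. Scrublet in scanpy 1.11.5 called 0 doublets at its automatic threshold, so the highest scores at a rate of 0.8% per 1000 barcodes were an alternative (2, 9 and 2 T cells). UMIs were summed over the T cells of a library and given as CPM of that sum. Cells with many UMIs therefore weigh more.

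Shares had exact Clopper-Pearson intervals and ratios of 2 libraries the exact interval conditional on their sum, at 95%, and both cover counting error only. A list's median log2 ratio took genes with at least 50 UMIs over the libraries, with 0.5 added to each count. The T cell rule, the gene lists and the comparisons were chosen with earlier results of these data known. Named genes beyond the lists were the 10 largest and 10 smallest ratios per contrast among genes with at least 50 UMIs, a UMI in at least 10 T cells of the higher library and a CPM there no lower than in other kept cells; mitochondrial and ribosomal protein genes were left out. For each subset, the 10 genes with the highest ratio to the other T cells were taken, and are given without mixed cells, those with at least 50 UMIs of macrophage, FAP or dendritic cell markers or 10 of endothelial or muscle markers. Thinned shares are exact expectations in place of the single random draw first planned. The alternatives that thinned cells before the T cell rule or before the division into subsets still used a single random draw. The intervals and ratios were tested on simulated Poisson and binomial counts, which hold no spread between cells. Gene coordinates are from GENCODE M21 (GRCm38) and matched 99.6% of feature IDs. The software was Python 3.11.15, numpy 2.4.6, scipy 1.17.1, pandas 2.3.3 and matplotlib 3.10.9.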

Additional observations from a re-analysis of the deposited data

How the results depend on the processing

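No paired analysis was possible because each group had 1 library, and for the same reason no library could be left out. Every alternative was computed on the same 3 libraries and cannot show how mice differ. The T cell share kept its direction in all 3 contrasts: over the alternatives the old-to-young ratio lay between 1.38 and 1.72, the treated-to-vehicle ratio between 0.391 and 0.482 and the ratio of old rMETRNL to young PBS between 0.620 and 0.721. The Cd8a-positive share of T cells lay between 1.78 and 2.54 for age and between 0.574 and 0.630 for treatment. The ranges of both shares include an alternative that thinned cells by a single random draw, and the 1.78 is the value of that draw. Of 663 values of the 54 results that answer a comparison, 638 stayed within the spread allowed, 25 moved and 0 changed the sign of a called value. Of 572 values of single genes 48 moved and 0 did so. For a ratio, the spread allowed was its own counting interval, and a change of sign was counted only where that interval left out 1. The alternatives mostly use the same cells, so this agreement was largely built in, and sign changes of uncalled values are not in these counts. The cells that carried another cell type's UMIs were left out, and cycling was counted without thinning, as alternatives chosen after seeing the data.

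Counts of genes past 2-fold depended on the UMI minimum by construction, since it sets how many genes are counted. With at least 20 UMIs they were 252 higher and 297 lower (age), 311 and 236 (treatment) and 291 and 223 (old rMETRNL over young PBS), and with at least 100 UMIs 31 and 16, 33 and 16, and 33 and 20. Without the conditions on Csf1r and Pdgfra the lower genes were 138, 145 and 149 in these contrasts and the higher genes of the treated-to-vehicle contrast 137; the cause was not tested. With at least 5 CD3 UMIs the higher genes were 51 for treatment and 56 for old rMETRNL over young PBS. Without mixed cells there were 36 lower for age, 49 higher and 38 lower for treatment, and 37 higher and 26 lower for old rMETRNL over young PBS. The median of inhibitory receptors and age-linked CD8 genes went to 0.32 in the old-to-young contrast without the conditions on Csf1r and Pdgfra, and that of cytokines and ligands to 0.13 in the treated-to-vehicle contrast with at least 20 UMIs.

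With the mean of per-cell CPM, which weighs each cell equally, the medians of several lists changed sign in the old-to-young contrast: receptor signalling to -0.015, lineage transcription factors to -0.18, naive and recirculating genes to -0.27 and cytokine receptors to -0.008. In the treated-to-vehicle contrast that of the cell cycle list went to 0.062. The lists of cytotoxic, interferon response and stress genes kept their signs in both contrasts under all alternatives run.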
